A study of Mus musculus with 6 samples.

Results

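The Serpina3 genes of the mouse are a tandem array of serine protease inhibitor (serpin) genes on chromosome 12. The 6 described here, Serpina3f, Serpina3g, Serpina3h, Serpina3i, Serpina3m and Serpina3n, were found by matching the Ensembl identifiers of the deposited count table to gene symbols, and all 6 were among its 43346 genes. The set was chosen by the level of Serpina3g, which was strongly lower after erastin in these same libraries, so the comparison of erastin with DMSO is given for the members as a description, with no p-value. Which members the fit over all genes called is stated once, and nothing is read from it. The other 8 genes with a Serpina3 symbol serve as neighbours.

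The cells were C57BL/6 primary mouse embryonic fibroblasts (MEFs), which are cultured from mouse embryos, in their passage 9. Erastin is a small molecule that blocks cystine uptake and is used to induce ferroptosis, an iron-dependent form of cell death. Of 6 libraries of ribosome-depleted total RNA, 3 came from MEFs given the solvent DMSO and 3 from MEFs given 3 µM erastin, all harvested after 24 h. The series' design text says that the experiment was done in triplicate but not whether the replicates were separate embryos or cultures, so the spread given here is that between these libraries and may be technical.

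Serpins trap their target protease by offering an exposed loop, the reactive centre loop, as bait; cleavage of the loop locks the protease in an inactive complex. The mouse array corresponds to a single human gene, SERPINA3, which encodes the acute-phase protein alpha-1-antichymotrypsin, and its copies differ most in that loop. Serpina3g, also called Spi2A, is known as an intracellular inhibitor of lysosomal cysteine cathepsins and as a gene induced by NF-kB and interferon. Serpina3n is known as a secreted inhibitor whose targets include granzyme B and as an acute-phase gene that responds to glucocorticoids and to STAT3.

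In the GENCODE M21 annotation (GRCm38) the array held 14 Serpina3 genes over 301606 bases, chr12:104112724-104414329, with 10 protein-coding genes and 4 pseudogenes. Serpina3f (ENSMUSG00000066363, chr12:104214544-104221129), Serpina3g (ENSMUSG00000041481, chr12:104236245-104241939), Serpina3h (ENSMUSG00000041449, chr12:104247905-104253669) and Serpina3i (ENSMUSG00000079014, chr12:104263122-104269372) follow each other on the plus strand, with the pseudogene Gm8918 between the first pair. Serpina3m (ENSMUSG00000079012, chr12:104338486-104394257) and Serpina3n (ENSMUSG00000021091, chr12:104406729-104414329) lie at the far end, also on the plus strand. Serpina3h is annotated as a transcribed unprocessed pseudogene, so 5 of the 6 members have a coding annotation. Serpina3m overlaps Serpina3k and Serpina3l-ps, and none of the other 5 members overlaps another annotated gene.

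The sequences around the start sites are shown because neighbouring members were lower together while Serpina3n, farther along the chromosome, differed least of the 3 members that passed the filter on low counts. RefSeq (GRCm38.p6) gave windows from 250 bases before to 50 bases after the start site for 4 of the 6 members, all on the plus strand, at chr12:104214294-104214593 for the first of the start sites of Serpina3f, chr12:104235897-104236196 for Serpina3g, chr12:104262872-104263171 for Serpina3i and chr12:104406458-104406757 for Serpina3n. Capitals mark matches, on either strand, to a STAT motif (TTCNNNGAA), an NF-kB motif (GGG and TTTCC with any 2 bases between them), an interferon response motif (GAAA and GAAA with any 2 bases between them), a glucocorticoid receptor motif (AGAACA) and a TATA motif (TATAAA).
Serpina3f: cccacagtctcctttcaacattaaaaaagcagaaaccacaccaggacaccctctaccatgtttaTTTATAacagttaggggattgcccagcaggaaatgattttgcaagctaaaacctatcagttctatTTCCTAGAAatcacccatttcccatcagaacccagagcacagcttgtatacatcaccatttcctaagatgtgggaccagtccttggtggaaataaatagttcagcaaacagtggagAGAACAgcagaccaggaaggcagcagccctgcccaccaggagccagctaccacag
Serpina3g: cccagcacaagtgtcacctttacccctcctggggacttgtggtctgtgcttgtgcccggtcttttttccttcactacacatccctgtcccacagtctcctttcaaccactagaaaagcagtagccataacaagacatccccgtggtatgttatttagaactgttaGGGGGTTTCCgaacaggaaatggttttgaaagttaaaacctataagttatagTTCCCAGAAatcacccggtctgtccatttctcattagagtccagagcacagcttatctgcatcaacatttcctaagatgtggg
Serpina3i: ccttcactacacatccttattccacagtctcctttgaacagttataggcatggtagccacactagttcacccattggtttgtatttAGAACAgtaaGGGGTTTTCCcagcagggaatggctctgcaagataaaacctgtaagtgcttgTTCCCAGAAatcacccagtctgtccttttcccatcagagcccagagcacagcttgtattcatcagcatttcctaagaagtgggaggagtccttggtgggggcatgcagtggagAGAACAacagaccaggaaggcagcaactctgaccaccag
Serpina3n: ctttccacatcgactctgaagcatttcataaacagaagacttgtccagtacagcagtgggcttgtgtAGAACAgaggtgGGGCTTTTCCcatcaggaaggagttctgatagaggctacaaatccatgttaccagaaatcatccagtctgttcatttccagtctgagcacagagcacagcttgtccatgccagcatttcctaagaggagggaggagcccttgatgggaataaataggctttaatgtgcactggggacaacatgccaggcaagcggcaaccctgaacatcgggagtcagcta

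The windows of Serpina3f, Serpina3g and Serpina3i each held 1 match to the STAT motif, and that of Serpina3n held none. The matches began 121, 33 and 102 bases before the RefSeq start site. Such a match occurred in 8.3% of all 32851 RefSeq windows of this length. The Serpina3g window ended at 104236196, before the GENCODE start of the gene at 104236245. Its distance was thus counted from a site upstream of the GENCODE start, unlike those of Serpina3f and Serpina3i. The NF-kB motif had 1 match each in Serpina3g, Serpina3i and Serpina3n and none in Serpina3f, against 1.6% of all windows. The glucocorticoid receptor half-site, present in 19.0% of all windows, had 1 match in Serpina3f, 2 in Serpina3i, 1 in Serpina3n and none in Serpina3g. The last bases of the Serpina3g window also occur in that of Serpina3f, before its half-site match. The stretch of Serpina3g that would correspond to that match thus lay outside the window and was not searched. No window held the interferon response motif (3.4% of all windows), and only that of Serpina3f held the TATA motif (13.6%). That match was on the opposite strand and began 186 bases before the start site. The window of the second start site of Serpina3f, not shown, held no TATA motif. No motifs overlapped in these windows. Over 203, 231 and 209 aligned bases the Serpina3g window was 80.8% identical to that of Serpina3f, 77.1% to that of Serpina3i and 61.2% to that of Serpina3n. The windows hold 300 bases each, so part of each was left out of these values. A match is a run of letters and does not show that a factor binds there. The windows belong to related gene copies, so their matches are not separate observations. Serpina3h and Serpina3m had no window here, and the part of any motif in the levels of the members was not tested.

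Total counts were 13333911 to 20509970 per library, and 3 reads, the smallest level taken as detectable, were worth 0.14 to 0.233 CPM (counts scaled by library size and TMM factor). The labelled cell type showed in its markers, since all 8 fibroblast markers were measured and their summed level was 23680 to 25330 CPM in DMSO libraries. With erastin it was 13410 to 15380 CPM, and 7 of the 8 passed as lower, Dcn being the exception. In bulk RNA, fewer cells of a type and less RNA per cell cannot be told apart. DMSO replicate 3 stood apart from the other DMSO libraries on the second principal component (14.5% of the variance), with a score of 43.9 against -30.6 and -19.65. Without it the log2 fold changes of erastin over DMSO were -5.46 for Serpina3g, -2.66 for Serpina3h, -0.70 for Serpina3n and -3.10 for the sum of the members. Of 14000 genes that passed the filter on low counts, 43.0% were called different by edgeR's quasi-likelihood test (Benjamini-Hochberg adjusted p under 0.05), 21.6% higher and 21.5% lower. Groups that did not overlap were seen for 52.5% of these genes, with erastin below DMSO for 25.9%.

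Together the 6 members drew 326, 446 and 311 reads in DMSO replicates 1, 2 and 3, and 73, 47 and 46 reads in erastin replicates 1, 2 and 3. In CPM the sums were 24.6, 24.7 and 24.2 in DMSO and 3.39, 2.81 and 2.38 in erastin libraries. The DMSO libraries lay almost on top of each other, and every erastin library was far below them. The means of 24.5 ± 0.275 and 2.86 ± 0.508 CPM (SD, n = 3 each) differed 8.56-fold (log2 fold change -3.09, SE 0.19). The coefficient of variation (CV) of the DMSO sums, 1.12%, was under the 4.74% to 5.67% that counting alone gives for a single sum of this size. So small a CV can arise by chance with 3 libraries, so nothing is read from it. The other 8 Serpina3 genes had 9 reads in all 6 libraries together, against 1249 for the members.

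**Figure D1:**
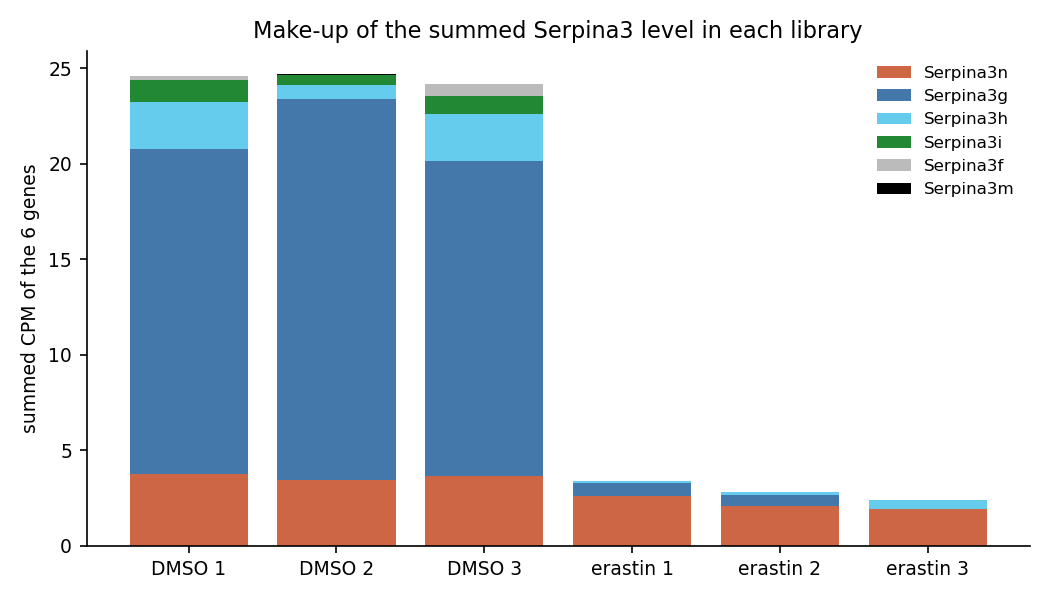
Stacked bars give the summed level of the 6 Serpina3 genes in each library, in CPM, with 1 colour per gene. The DMSO bars reach 24.2 to 24.7 CPM and consist mostly of Serpina3g, and the erastin bars reach 2.38 to 3.39 CPM and consist mostly of Serpina3n.

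Serpina3g had 225, 361 and 212 reads in the DMSO libraries and 15, 9 and 0 reads in the erastin libraries. These counts correspond to 17.0, 19.98 and 16.5 CPM with DMSO and to 0.697, 0.538 and 0 CPM with erastin. All DMSO libraries were high, all erastin libraries were under 1 CPM, and the groups did not overlap. The means were 17.8 ± 1.90 and 0.412 ± 0.365 CPM (SD, n = 3 each), a 43.3-fold lower mean and a log2 fold change of -5.40 (SE 0.51). This was the 6th lowest log2 fold change of the 14000 genes, which is the value that led to the choice of the set. In DMSO the gene was of middling abundance, with 48.7% of the tested genes having a lower mean CPM; with erastin 1.23% had a lower one. The fold rests on few erastin reads. Without erastin replicate 1 the log2 fold change was -6.10, and without erastin replicate 3, the library with no read, it was -4.82.

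Serpina3h, the transcribed pseudogene, had 33, 13 and 32 reads in DMSO and 2, 3 and 9 reads in erastin libraries. In CPM it was at 2.49, 0.72 and 2.49 with DMSO and at 0.093, 0.179 and 0.466 with erastin. DMSO replicate 2 was the low library of its group, and it still lay above erastin replicate 3, the high library of the other group. The means of 1.90 ± 1.02 and 0.246 ± 0.195 CPM (SD, n = 3 each) differed 7.72-fold, with a log2 fold change of -2.90 (SE 0.77) that became -3.75 without erastin replicate 3.

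Serpina3i had 15, 9 and 12 reads in DMSO libraries, or 1.13, 0.498 and 0.933 CPM, and no read in any erastin library. Against its DMSO mean of 0.854 ± 0.324 CPM (SD, n = 3) the erastin group was at least 16.4-fold lower, taking 3 reads over the whole group, 0.0521 CPM, as its upper limit. That bound takes the DMSO mean as exact; with counting error in both groups, the exact 95% interval of the ratio of erastin to DMSO reached from 0 to 0.0828. This bound shrank to 10.3 without erastin replicate 1 and to 10.9 without erastin replicate 3, since the same 3 reads are then set against fewer total reads. Serpina3f had 3, 0 and 8 reads in DMSO libraries and none in erastin libraries. DMSO replicate 2 was thus level with the erastin group, so the groups overlapped. Against the DMSO mean of 0.283 ± 0.315 CPM (SD, n = 3) the erastin group was at least 5.42-fold lower by the same limit, and at least 2.17-fold lower without DMSO replicate 3, which held most of the reads. With counting error in both groups, the exact 95% interval of its ratio reached from 0 to 0.306. Without erastin replicate 1 or 3 it was at least 3.4-fold or 3.6-fold lower. Serpina3m had 1 read, in DMSO replicate 2, and its level could not be compared at this depth.

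Serpina3n, the secreted inhibitor, had 50, 62 and 47 reads in DMSO and 56, 35 and 37 reads in erastin libraries, which were 3.77, 3.43 and 3.65 CPM against 2.60, 2.09 and 1.92 CPM. The erastin libraries were all lower once library size was taken into account, and the groups did not overlap. The means of 3.62 ± 0.173 and 2.20 ± 0.357 CPM (SD, n = 3 each) differed 1.64-fold (log2 fold change -0.71, SE 0.36). Erastin replicate 1 was the nearest to DMSO, and without it the log2 fold change was -0.85.

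**Figure D2:**
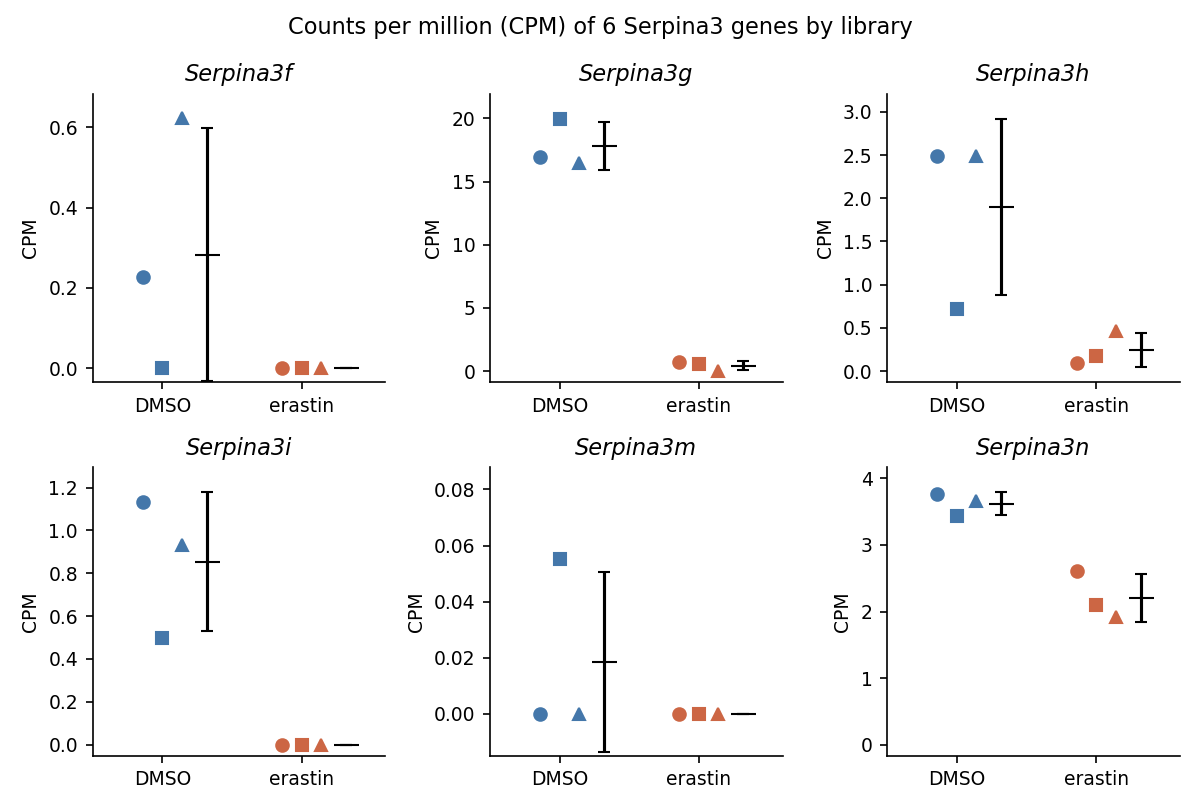
Each panel shows 1 gene in CPM, with a point per library (circle, square and triangle for replicates 1, 2 and 3) and a bar for the mean ± SD of 3 libraries beside each group; the vertical scales differ between panels and the lower ends of some SD bars lie below 0. Serpina3g, Serpina3h, Serpina3i and Serpina3n show erastin points below all DMSO points, while DMSO replicate 2 of Serpina3f and 2 DMSO libraries of Serpina3m are at 0.

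Of the 6 members, 3 passed the filter on low counts (Serpina3g, Serpina3h and Serpina3n), and of these Serpina3g and Serpina3h were called lower and Serpina3n was not, beside 21.5% of all tested genes called lower. Serpina3g and Serpina3h passed the filter only through the DMSO libraries, and Serpina3g led to the choice of the set, so nothing is read from that count. Likewise as a description, groups without overlap were seen for 4 of the 6 (Serpina3g, Serpina3h, Serpina3i and Serpina3n), all with erastin below DMSO. The share among the 14000 tested genes was 25.9%, but Serpina3i is not one of them and Serpina3g led to the choice of the set, so the shares are not alike and nothing is read from them.

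Levels of different genes were compared per kilobase of merged exons in GENCODE M21. In DMSO libraries Serpina3g led with 8.46 ± 0.901 CPM per kilobase, followed by Serpina3n with 1.75 ± 0.0838 and Serpina3h with 1.32 ± 0.712 (SD, n = 3 each). Serpina3i at 0.384 ± 0.146, Serpina3f at 0.123 ± 0.137 and Serpina3m at 0.0107 ± 0.0186 CPM per kilobase followed. Serpina3n and Serpina3h overlapped between libraries (1.66 to 1.83 against 0.502 to 1.74), as did Serpina3i and Serpina3f (0.224 to 0.509 against 0 to 0.272). In erastin libraries Serpina3n led with 1.07 ± 0.173 CPM per kilobase, and Serpina3g at 0.196 ± 0.174 and Serpina3h at 0.172 ± 0.136 overlapped. The gene in first place was thus Serpina3g with DMSO and Serpina3n with erastin.

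Shares of the summed reads restate the same counts that led to the choice of the set, and they show how the sum was made up in each library. A share of Serpina3n also depends on the reads of Serpina3g in the sum, and its own level was lower with erastin. Serpina3g held 69.0%, 80.9% and 68.2% of the sum in DMSO replicates 1, 2 and 3 and 20.5%, 19.1% and 0% in the erastin libraries. Serpina3n held 15.3%, 13.9% and 15.1% in DMSO and 76.7%, 74.5% and 80.4% in erastin libraries. The exact Clopper-Pearson 95% intervals, which cover counting error only, were 62.7% to 73.3% for Serpina3g in DMSO replicate 3, its lowest DMSO share, and 12.0% to 31.6% in erastin replicate 1, its highest erastin share. In erastin replicate 3, 0 of 46 reads allowed a share of Serpina3g of up to 7.71% by the same interval. The share of Serpina3h was 2.92% to 10.3% with DMSO against 2.74% to 19.6% with erastin, so it overlapped between treatments.

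The neighbouring genes Serpina3f, Serpina3g, Serpina3h and Serpina3i varied against each other within the DMSO group. DMSO replicate 2 had the highest Serpina3g level but only 1.22 CPM of Serpina3f, Serpina3h and Serpina3i together, against 3.85 and 4.04 CPM in DMSO replicates 1 and 3. Summed over all 4 genes, the levels were 20.8, 21.2 and 20.5 CPM, with a CV of 1.63%. Serpina3g alone had a CV of 10.6% and Serpina3h one of 53.8%. The CV of the 4-gene sum is smaller than counting alone gives, since even the larger 6-gene sums carry 4.74% to 5.67%. With 3 libraries so small a CV can arise by chance, so nothing is read from it. Counting alone gives 5.26% to 6.87% for Serpina3g in these libraries. In erastin replicate 3, where Serpina3g had no read, Serpina3h had its highest erastin count. The 4-gene sum was 0.79, 0.717 and 0.466 CPM in the erastin libraries, a 31.7-fold lower mean (20.9 ± 0.34 against 0.658 ± 0.17 CPM, SD, n = 3 each). Whether reads were divided differently between these genes in different libraries was not tested.

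**Figure D3:**
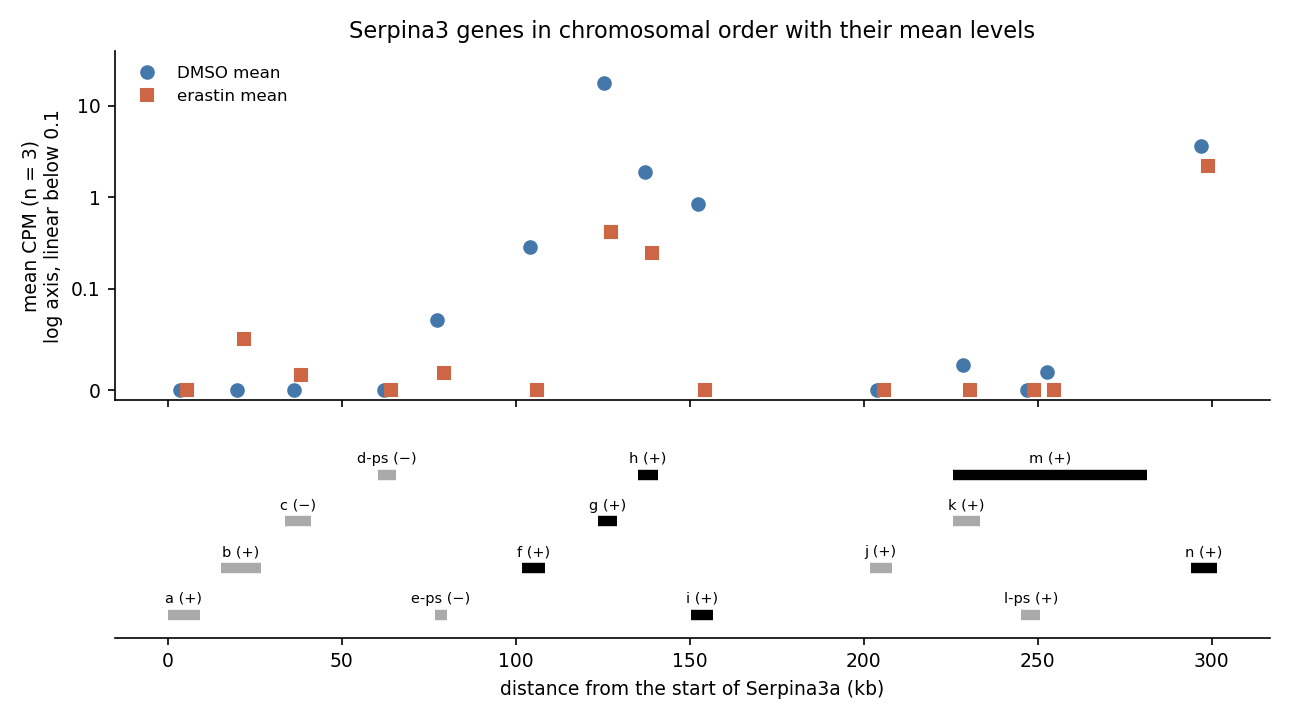
The upper panel gives the mean CPM of 3 DMSO libraries (circles) and 3 erastin libraries (squares) for the 14 Serpina3 genes on an axis that is logarithmic above 0.1 and linear below it; the lower panel draws the genes to scale with their strand, members in black, by distance from the start of Serpina3a. The members f to i lie next to each other with erastin means below DMSO means, and Serpina3n at the far end has the closest pair of means among the members above 1 CPM in DMSO.

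How far the members could be told apart by sequence was measured on the longest GENCODE M21 transcript of each. Of all windows of 50 bases, 24.4% in Serpina3h, 16.0% in Serpina3g, 15.4% in Serpina3i, 10.7% in Serpina3f, 19.1% in Serpina3m and 6.9% in Serpina3n also occurred in a transcript of another gene. Serpina3h shared most with Serpina3i (18.3% of its windows) and Serpina3g shared most with Serpina3h (8.7%), whereas 2.9% of Serpina3g windows occurred in Serpina3n. With windows of 100 bases the shared part was 4.6% in Serpina3g, 4.2% in Serpina3h and 0.2% in Serpina3n. Along aligned transcripts Serpina3g was 88.4% identical to Serpina3f, 86.8% to Serpina3i, 84.9% to Serpina3h, 78.8% to Serpina3n and 75.9% to Serpina3m. The labels say that short library fragments were selected, but not how long the reads were or how reads matching several genes were counted. Single values of Serpina3f, Serpina3g, Serpina3h and Serpina3i are therefore uncertain, and whether their sum is less so was not tested.

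**Figure D4:**
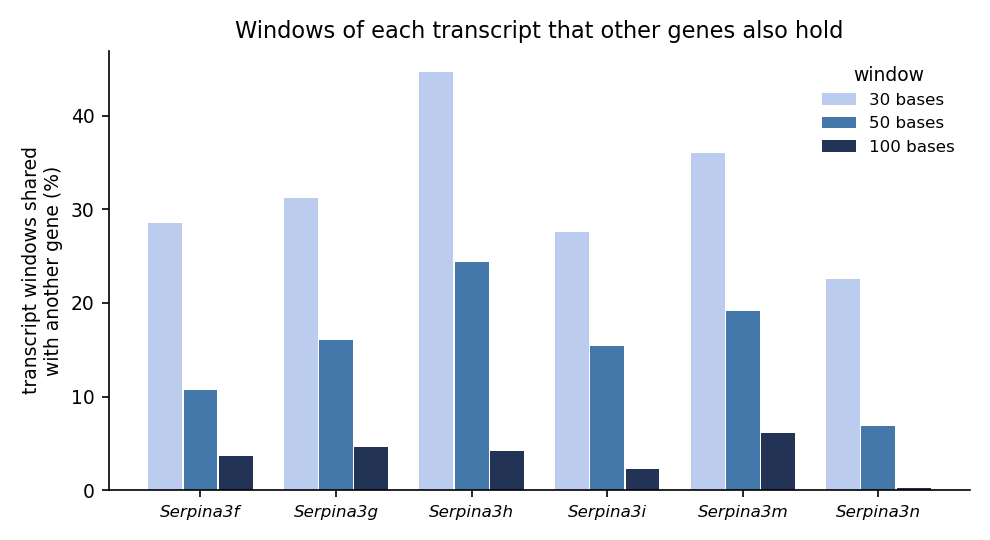
Bars give the percentage of windows of 30, 50 and 100 bases in the longest transcript of each member that also occur in a transcript of another gene. Serpina3h has the most shared windows at 50 bases (24.4%) and Serpina3n the fewest (6.9%).

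Among the other Serpina3 genes, Serpina3b had 2 reads and Serpina3c 1 read in erastin replicate 1, Serpina3b had 1 more in erastin replicate 2, Serpina3k had 1 read in DMSO replicate 1, and Serpina3e-ps had 4 reads in all. Serpina3a, Serpina3d-ps, Serpina3j and Serpina3l-ps had 0 reads in every library. The only gene of another name annotated between Serpina3f and Serpina3n, the processed pseudogene Gm8918, had 5, 3 and 9 reads in DMSO and 18, 5 and 4 reads in erastin libraries, and the groups overlapped. It lies between Serpina3f and Serpina3g and did not pass the filter.

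Means of the genes outside the set are given ± SD over the 3 libraries of each treatment, and their adjusted p-values come from the edgeR test over all 14000 genes, of which 43.0% were called. The list of 19 other clade A serpins includes 5 genes of the array itself (Serpina3a, Serpina3b, Serpina3c, Serpina3j and Serpina3k) and the alpha-1-antitrypsin genes Serpina1a to Serpina1e. None of the 19 passed the filter on low counts, and 9 had no read in any library. Of 11 serpins of clades C to I, most of them secreted, 7 were tested, 2 rose and 2 fell, with a median log2 fold change of 0.14 against -0.0014 for all genes tested. Serpini1, neuroserpin, rose to 4.66 ± 1.47 CPM with erastin, compared with 0.981 ± 0.978 CPM in DMSO libraries (log2 fold change 2.17, adjusted p = 0.00547). Without DMSO replicate 2, its high DMSO library, the log2 fold change was 3.45. Serpinh1, a chaperone of collagen, fell to 1700 ± 47.4 CPM, compared with 2308 ± 82.8 CPM (adjusted p = 4.92e-05). The C1 inhibitor gene Serping1 averaged 27.0 ± 0.552 CPM with erastin and 33.95 ± 0.926 CPM with DMSO (adjusted p = 0.0238), and it lost its call under 7 of 15 alternatives, with an adjusted p of up to 0.132. Those 7 include leaving out DMSO replicate 2 (0.0799), erastin replicate 1 (0.0812) or erastin replicate 2 (0.0588).

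Of 27 clade B serpins, which mostly act inside cells, 9 were tested. Of these 3 rose and 3 fell, beside 21.6% and 21.5% of all genes tested, with a median log2 fold change of -0.015. Serpinb9b rose to 192 ± 11.95 CPM, compared with 99.9 ± 5.34 CPM in DMSO libraries (adjusted p = 3.31e-07). Serpinb2 rose to 7.51 ± 1.47 CPM, compared with 0.671 ± 0.325 CPM (adjusted p = 6.97e-06). Serpinb1a, an inhibitor of neutrophil serine proteases, fell to 6.42 ± 0.405 CPM, compared with 12.5 ± 1.001 CPM (adjusted p = 0.00107). Serpinb6b fell to 1.36 ± 0.664 CPM, compared with 5.66 ± 2.77 CPM (adjusted p = 0.00193). The remaining calls, named after their values were seen, were Serpinb1b and Serpinb9. Serpinb1b had no read in DMSO libraries and 20, 35 and 16 reads in erastin libraries. Serpinb9, which encodes a granzyme B inhibitor, fell to 13.7 ± 1.54 CPM, compared with 19.5 ± 0.257 CPM (adjusted p = 0.0132). Clade B genes also come in families of related copies, and how far their transcripts share sequence was not measured here.

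The list of candidate target proteases held 11 cathepsins and serine proteases, of which 7 were tested, all of them cysteine cathepsins of the lysosome. Of these 2 rose and 4 fell, beside 21.6% and 21.5% of all genes tested, with a median log2 fold change of -0.27 against -0.0014 for all. The 6 calls became 3 at an adjusted p under 0.01, and 4 with an offset for GC content and transcript length or without erastin replicate 1. Cathepsin B (Ctsb) fell to 599 ± 44.8 CPM with erastin, compared with 734 ± 27.4 CPM (adjusted p = 0.00402), and cathepsin C (Ctsc) fell to 24.2 ± 2.88 CPM, compared with 36.7 ± 2.25 CPM (adjusted p = 0.00113). Cathepsin L (Ctsl) averaged 539.5 ± 18.5 CPM with erastin and 457 ± 20.9 CPM with DMSO (adjusted p = 0.0102), and cathepsin Z (Ctsz) 199 ± 7.07 CPM and 239 ± 12.2 CPM (adjusted p = 0.00816). The offset ended both calls, with adjusted p-values of 0.145 for Ctsl and 0.467 for Ctsz. The Ctsz call was also lost without DMSO replicate 2 (0.0512) and without erastin replicate 1 (0.0545). The remaining calls, named after their values were seen, were Ctss, which rose to 4.31 ± 0.892 CPM, compared with 1.31 ± 0.806 CPM (adjusted p = 0.0107), and Ctsh, which fell to 14.7 ± 3.34 CPM, compared with 22.0 ± 2.56 CPM (adjusted p = 0.0139). Cathepsin G (Ctsg) had no read, and neutrophil elastase (Elane), chymase (Cma1) and granzyme B (Gzmb) had 1, 21 and 4 reads in all 6 libraries together.

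Pathways known to act on Serpina3 genes were covered by a list of 26 genes of cytokine, STAT, NF-kB and glucocorticoid signalling, all of which were tested. Of these 5 rose and 10 fell, beside 21.6% and 21.5% of all genes tested, with a median log2 fold change of -0.21 against -0.0014 for all. The 15 calls ranged from 11 (adjusted p under 0.01) to 18 (DESeq2) over 16 alternatives. Among receptors, Il6st, the signalling chain shared by interleukin-6 family cytokines, fell to 444 ± 40.3 CPM, compared with 873 ± 44.2 CPM in DMSO libraries (adjusted p = 1.62e-07). The interleukin-1 receptor gene Il1r1 fell to 27.9 ± 1.15 CPM, compared with 60.4 ± 7.28 CPM (adjusted p = 1.29e-06). Stat3, the transcription factor downstream of Il6st, fell to 134 ± 5.28 CPM, compared with 234 ± 14.1 CPM (adjusted p = 8.66e-07). Socs3, a STAT3-induced feedback inhibitor, fell to 20.9 ± 0.730 CPM, compared with 61.5 ± 7.89 CPM (log2 fold change -1.56, adjusted p = 7.76e-08).

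Other calls of the signalling list, named after their values were seen, included Lifr, Irf1, Cebpd, Ifngr1 and Osmr among the genes that fell and Cebpb, Rela, Nfkbia, Jak1 and Nr3c1 among those that rose. Log2 fold changes of the former ran from -1.32 (Lifr, the receptor of leukaemia inhibitory factor) to -0.29 (Osmr, the oncostatin M receptor). Those of the latter ran from 0.25 (Nr3c1, the glucocorticoid receptor) to 0.67 (Cebpb). Rela, which encodes the NF-kB subunit p65, had a log2 fold change of 0.53. With upper-quartile factors, at an adjusted p under 0.01, or without DMSO replicate 1 or erastin replicate 1, 3 genes of the list were called higher in place of 5. Relb, Nfkb1, Nfkb2, Stat5a, Stat5b, Jak2, Ikbkb, Il6ra, Ifngr2, Tnfrsf1a and Socs1 did not pass.

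**Figure D5:**
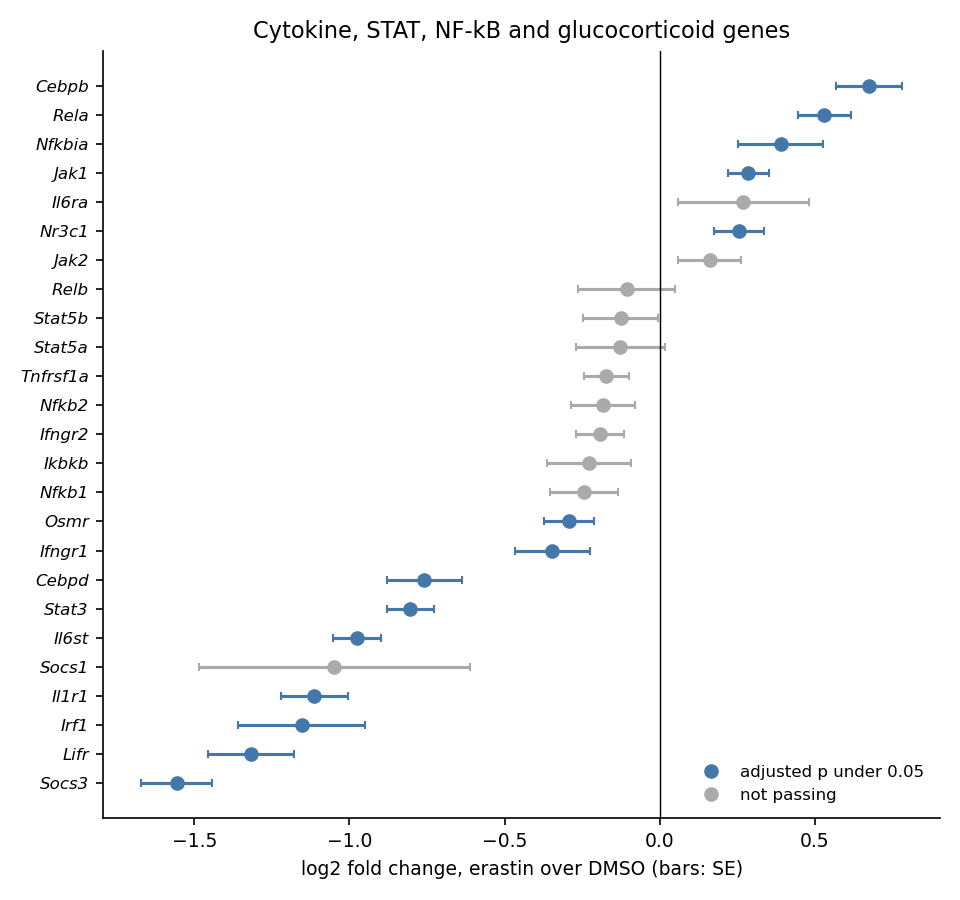
Points give the log2 fold change of erastin over DMSO for 25 of the 26 signalling genes with their standard errors (3 libraries per group), blue where the adjusted p-value was under 0.05. Socs3, Lifr, Irf1 and Il1r1 are the lowest of those passing, and Cebpb and Rela the highest.

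Of 22 acute-phase genes, 9 were tested. Of these 1 rose and 1 fell, beside 21.6% and 21.5% of all genes tested, with a median log2 fold change of -0.23. The chemokine gene Ccl2 fell to 20.9 ± 4.41 CPM, compared with 63.7 ± 10.35 CPM in DMSO libraries (adjusted p = 1.03e-06). The ceruloplasmin gene Cp averaged 6.50 ± 1.82 CPM with erastin and 2.96 ± 1.03 CPM with DMSO (adjusted p = 0.0145), and its call was lost without DMSO replicate 1 (0.0573) or erastin replicate 3 (0.0762). Saa1, Saa2, Orm2 and Fgg had no read in any library. Of 20 interferon-induced genes, 17 were tested. Of these 1 rose and 2 fell, beside the same shares of all genes tested, with a median log2 fold change of -0.14. Cd274, which encodes the ligand PD-L1, rose to 8.57 ± 1.55 CPM, compared with 1.71 ± 0.504 CPM (adjusted p = 3.2e-05). Ifit1, an antiviral RNA-binding protein gene, fell to 2.45 ± 0.482 CPM, compared with 7.03 ± 0.438 CPM (adjusted p = 0.000685). Usp18, which removes the ubiquitin-like ISG15 from proteins, averaged 3.78 ± 0.715 CPM with erastin and 6.96 ± 1.58 CPM with DMSO (adjusted p = 0.0215). The Usp18 call was lost without DMSO replicate 2 (0.118), erastin replicate 1 (0.0797) or erastin replicate 2 (0.0646).

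Serpina3g is also known from blood cells, so markers of other cell types were read beside it. The summed level of 7 macrophage markers was 27.9 to 48.9 CPM with DMSO against 28.6 to 61.3 CPM with erastin, so the ranges overlapped, and 0 of the 7 passed in either direction. Of 5 lymphocyte markers none was tested, Cd8a was at 0 in all libraries, and the sum was at most 0.233 CPM. The 5 hepatocyte markers, with Afp and Serpina1a at 0, summed to at most 0.359 CPM. Endothelial markers (5) summed to 5.09 to 7.70 CPM with DMSO against 14.1 to 17.4 CPM with erastin, with 2 of 3 tested, Kdr and Tek, higher and none lower. Epithelial markers (5) summed to 2.18 to 3.25 and 2.00 to 3.17 CPM, with 0 of 1 tested passing. The skeletal muscle list (5) summed to 51.5 to 62.1 and 17.5 to 22.4 CPM, nearly all from the actin gene Acta1, its only tested and lower member. The part of these cell types in the levels of the Serpina3 genes was not tested.

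The genes whose pattern over the 6 libraries lay closest to that of Serpina3g, by Euclidean distance of centred log2 CPM, were Hist1h2bf (distance 1.63), Hist1h2ae (2.18), Hist1h2ah (2.18), Mxd3 (2.40) and Hist1h2an (2.42), against a median distance of 7.09 to all tested genes. They comprise 4 histone genes of near-identical families and Mxd3, a repressor of the MYC network, and each was low in the erastin libraries, from 0.0509 ± 0.0471 CPM in Mxd3 to 0.396 ± 0.348 CPM in Hist1h2ae (SD, n = 3 each). Closest to Serpina3n were Tyms (distance 0.165), Fam171a1 (0.171), Saysd1 (0.178), Cebpd (0.187) and Nfatc3 (0.2), against a median of 1.19. Cebpd, which encodes an acute-phase transcription factor, went from 34.5 ± 1.62 to 20.4 ± 1.78 CPM (SD, n = 3 each). The 6 libraries form 2 groups, so the difference between the treatments enters every such distance.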

How the data were processed

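RNA of 3 DMSO and 3 erastin libraries of MEFs was measured as read counts per gene. The deposited counts of 43346 genes are whole reads with no normalization by the authors; the submitters' processing notes name HTSeq 0.9.1, SAMtools and the mm10 build, and aligner, annotation, strand and the handling of reads fitting several genes are not given in the sources used here. Symbols were found for 42462 identifiers (98.0%) in GENCODE M21, whose gene versions differ from the table's for Serpina3f, Serpina3g, Serpina3h and Serpina3m, so exon lengths may differ from those counted; the columns not used here numbered 0.

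Genes were filtered with filterByExpr (minimum count 10 in at least 3 libraries, scaled by library size, and a total of 15) and scaled with TMM factors; CPM uses these factors. The test was edgeR 4.0.16 (R 4.3.3), quasi-likelihood, treatment as the only term, Benjamini-Hochberg over 14000 genes, threshold 0.05. The sum of the members was fitted in their place. The script was tested on simulated data. Transcripts and promoters were aligned with MAFFT 7.526. Alternatives were RLE and upper-quartile factors, total counts, other filters, the replicate block, leaving out each library, DESeq2 1.42.0, an adjusted p under 0.01, a prior count of 2, totals without the 4 most counted genes and, chosen after the data were seen, an offset for GC content and length (mgcv 1.9.3), alone and with the replicate block.

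The members and lists were chosen with earlier results of these data known. Named were the members; other Serpina3 genes and genes between them with reads; per list the 4 called genes with the smallest p and a mean of at least 1 CPM; the 5 genes nearest in pattern to Serpina3g and to the next most abundant member; and marker genes. Some genes that this rule or the lists hold are not reported here; counts and medians of the lists include them.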

Additional observations from a re-analysis of the deposited data

How the results depend on the processing

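Serpina3g, Serpina3n and the sum of the members kept their direction in 17 alternatives and Serpina3h in 16; a filter of 1 CPM in 3 libraries removed Serpina3h. Leaving out each library gave log2 fold changes of -6.10 to -4.82 for Serpina3g, -3.75 to -2.50 for Serpina3h, -0.85 to -0.61 for Serpina3n and -3.24 to -2.97 for the sum; other settings gave -5.45 to -5.07, -2.96 to -2.46, -0.76 to -0.64 and -3.14 to -3.02. Genes called ran from 4305 to 6104. At an adjusted p under 0.01 the called acute-phase genes numbered 1 and the called proteases 3; interferon-induced genes called numbered 5 after the GC and length offset with the replicate block. Leaving out each library gave 1 to 2 called acute-phase genes. Of 21 named list genes, 16 kept their call throughout and 5 (Cp, Ctsl, Ctsz, Serping1 and Usp18) did not; the cause was not tested.

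Equally numbered libraries were almost uncorrelated in their deviations from the group means (0.040, 0.0038 and -0.0055 for numbers 1, 2 and 3). Unequally numbered libraries gave -0.045 to 0.035. With 3 libraries per group these values cannot decide whether the numbers pair the libraries. With the replicate block 5883 genes were called. The log2 fold changes of Serpina3g, Serpina3h, Serpina3n and the sum were then -5.45, -2.94, -0.72 and -3.10. The depth limits Serpina3f, Serpina3i and Serpina3m most, as 3 reads over the erastin group correspond to 0.0521 CPM.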
